A study of Mus musculus with 6 samples.

Results

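The genes described here mark the identity of resident peritoneal macrophages. They are 10 genes chosen by name, namely Gata6, Timd4, Icam2, Adgre1, Prg4, Serpinb2, Fn1, F5, F10 and Rarb, and all 10 were found among the 54532 genes of the deposited table. RNA-seq of poly-A RNA was performed on WT peritoneal macrophages in 3 groups of 2 libraries each. Control cells were untreated, Model cells received LPS + ATP, and MUS cells received LPS + ATP with muscone, a macrocyclic ketone of musk. According to the methods, LPS (500 ng/mL), a bacterial cell wall component, was given for 5.5 h before ATP (2 mM) for 0.5 h, and muscone (50 μM) was added 0.5 h before ATP. All groups shared the same source, male C57BL/6J mice of 6 to 8 weeks, whose peritoneal cells were collected 5 days after an injection of thioglycolate and plated overnight. Thioglycolate draws monocytes into the cavity, so such cultures are expected to hold recruited as well as resident macrophages.

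Resident macrophages of the peritoneal cavity are seeded early in life and maintain themselves without much input from blood monocytes. Their programme is directed by the transcription factor GATA6, whose expression is induced by retinoic acid from cells of the peritoneal lining. The programme includes surface receptors for the uptake of dying cells, proteins of the extracellular matrix and components of the coagulation cascade, which allow these cells to form clots in the cavity. During inflammation, resident macrophages are known to leave the fluid phase, and several of their genes also respond to LPS.

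Fragments on genes numbered between 15526321 and 17135442 per library and were recovered from the FPKM, a level per gene length that can be compared between genes. Model replicate 1 stood apart in having 24906 genes with at least 1 fragment, against 17406 to 19200 in the other 5 libraries. The Control libraries were scaled by the authors with 1.45 and 1.34 times their fragment total, against 0.909 to 0.998 times in Model and MUS. Rescaling all libraries to their fragment totals therefore shifted the median log2 fold change of all genes from 0.04 to -0.40 in Model vs. Control, whereas the median in MUS vs. Model was 0.01 and 0.02. Macrophage genes were abundant in every library, with Lyz2, which encodes lysozyme, between 7275 and 12007 FPKM. The labels do not say whether the libraries came from separate mice or cultures, so the p-values measure the spread between these libraries, which may be technical.

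The identity genes were expressed at very unequal levels. Over the 6 libraries, Serpinb2 had the highest mean (317 FPKM), followed by F10 (308 FPKM), Adgre1 (266 FPKM) and Fn1 (149 FPKM), and each of these 4 genes was above at least 97.0% of all genes tested. Much lower means were found for Prg4 (5.08 FPKM), Timd4 (4.26 FPKM), Icam2 (2.81 FPKM), Gata6 (1.04 FPKM), F5 (0.843 FPKM) and Rarb (0.0449 FPKM). The order was not firm within these groups. Ranges over all libraries overlapped for Serpinb2 and F10, F10 and Adgre1, Adgre1 and Fn1, Prg4 and Timd4, Timd4 and Icam2, and Gata6 and F5. Clear gaps lay between Fn1 and Prg4, between Icam2 and Gata6, and between F5 and Rarb, where the higher gene exceeded the lower one in 6 of 6 libraries without overlap. These gaps concern neighbours in the order of means only. The high mean of Serpinb2 came from the Model and MUS libraries. In Control replicate 1, Serpinb2 held 4.97 FPKM, below Prg4 (5.32 FPKM), and the Control mean of Serpinb2 was 13.4 FPKM. Thus the members with the highest means were the macrophage antigen Adgre1, fibronectin and a pair of secreted or intracellular proteins of coagulation and proteolysis. The transcription factor that defines resident cells was only just above the limit for testing. The share of resident cells in these cultures was not tested.

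**Figure D1:**
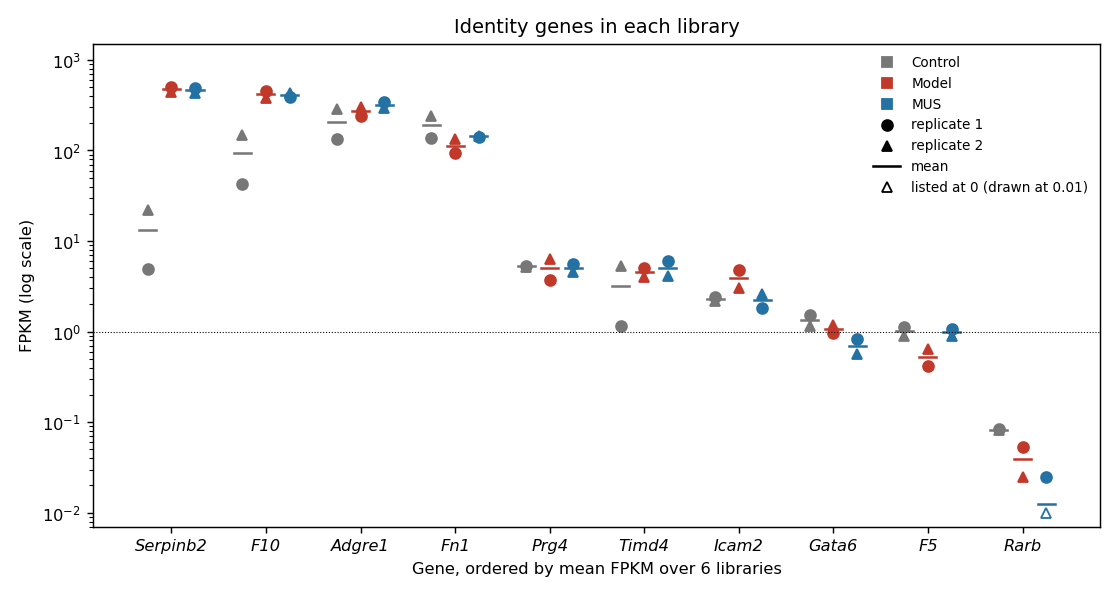
FPKM (log scale) of the 10 identity genes in each library, by group, with circles for replicate 1, triangles for replicate 2 and a short line for the group mean; the dotted line marks 1 FPKM. Serpinb2 and F10 lie far lower in both Control libraries than in the Model and MUS libraries, whereas the groups of Prg4 and Timd4 overlap.

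In Model vs. Control, Serpinb2 and F10 rose and no identity gene was called lower, and neither gene was called in MUS vs. Model. Of the 8 members with a mean FPKM of at least 1, 2 were called higher and 0 lower when a call required limma's adjusted p to be no more than 0.05 together with a log2 fold change beyond 1 in either direction. Among all 9794 genes tested, 9.5% were called higher and 5.56% lower. The median log2 fold change was 0.51 for the 8 members and 0.04 for all genes tested. In MUS vs. Model, 0 of 8 members were called by limma, as were 0% of all genes, although 825 genes had an unadjusted p under 0.05 and 7 genes passed when only these 4 libraries were fitted. With DESeq2 and the same thresholds, the paper did report differentially expressed genes in MUS vs. Model, most of them lower in MUS. The 0% therefore belongs to the limma fit used here. In MUS vs. Control, the called members were again Serpinb2 and F10, against 11.3% of genes called higher and 8.91% called lower. The comparisons share libraries, so the results against Control are not independent of each other. In bulk RNA, fewer cells of a type and less RNA per cell cannot be told apart.

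Serpinb2 encodes plasminogen activator inhibitor-2, which blocks urokinase and is a long-known LPS response gene of macrophages. The gene lies on chromosome 1, 107511423 to 107535478, plus strand (GRCm38, ENSMUSG00000062345). Control replicates 1 and 2 held 4.97 and 21.8 FPKM of Serpinb2, Model replicates 508 and 444.1 FPKM, and MUS replicates 495 and 428 FPKM. All 4 stimulated libraries were far above both Control libraries, and the Model and MUS libraries overlapped. Mean FPKM rose from 13.4 ± 11.9 (SD, n = 2) in Control to 476 ± 45.5 (SD, n = 2) in Model, and was 462 ± 46.9 (SD, n = 2) in MUS. On the log2(FPKM + 1) scale, Model exceeded Control by 5.35 (SE 0.60, adjusted p from limma = 0.00325), and 34 of the 9794 genes had a larger increase. Within batch 1 and batch 2, the log2 difference was 6.41 and 4.29. The fold change in MUS vs. Model was -0.05, with a 95% interval from -1.45 to 1.36 (limma adjusted p = 0.991). Of the exon bases of Serpinb2, 12.4% are shared with Serpinb10 on the same strand.

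F10 encodes coagulation factor X, the protease that converts prothrombin to thrombin. It lies on chromosome 8, 13037308 to 13056676, plus strand (GRCm38, ENSMUSG00000031444), and shares no exon base with another gene. Control replicates held 42.2 and 147 FPKM of F10, Model replicates 458 and 381 FPKM, and MUS replicates 392.3 and 427 FPKM. Both Control libraries were again below all others, but they differed from each other by more than the stimulated libraries did. The mean of F10 was 94.5 ± 74.0 FPKM (SD, n = 2) in Control, 420 ± 54.3 FPKM (SD, n = 2) in Model and 409.6 ± 24.6 FPKM (SD, n = 2) in MUS. By limma, F10 exceeded Control by 2.39 on the log2 scale in Model (SE 0.57, adjusted p = 0.0313) and by 2.36 in MUS (adjusted p = 0.0263). Within batch 1 and batch 2, the log2 difference in Model vs. Control was 3.41 and 1.37. In MUS vs. Model it was -0.03, with a 95% interval from -1.37 to 1.32 (limma adjusted p = 0.994).

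The call of F10 depended on single libraries and settings, whereas that of Serpinb2 did not. Without Control replicate 1, F10 gave a log2 fold change of 1.503 between Model and Control, and without Control replicate 2 it was 3.28, both past the threshold. With Model replicate 1, Model replicate 2, MUS replicate 1 or MUS replicate 2 left out, F10 no longer passed in Model vs. Control (adjusted p from limma = 0.129, 0.0780, 0.0788 and 0.0788), although its log2 fold change was 2.26, 2.52, 2.39 and 2.39. Against Control, F10 in MUS no longer passed without MUS replicate 1 or MUS replicate 2 (adjusted p from limma = 0.157 and 0.130). It was also lost in both comparisons without the filter on low values (0.171 and 0.142) and with quantile normalization (0.114 and 0.0887), and in Model vs. Control with only these groups fitted (0.0764), all by limma with adjusted p. Each fit without a library has fewer residual degrees of freedom, and a group left with 1 library is assumed to vary like the other groups. Serpinb2 passed in every one of these fits, with a log2 fold change between 4.39 and 6.32 in Model vs. Control and between 4.34 and 6.27 in MUS vs. Control.

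To show the sequence in front of the genes that rose, the 250 bases before the RefSeq start of each (GRCm38.p6, 5′ to 3′ on the plus strand) are given with motif matches in capitals. The window of Serpinb2 is at chr1:107511173-107511422 and that of F10 at chr8:13037058-13037307.
Serpinb2: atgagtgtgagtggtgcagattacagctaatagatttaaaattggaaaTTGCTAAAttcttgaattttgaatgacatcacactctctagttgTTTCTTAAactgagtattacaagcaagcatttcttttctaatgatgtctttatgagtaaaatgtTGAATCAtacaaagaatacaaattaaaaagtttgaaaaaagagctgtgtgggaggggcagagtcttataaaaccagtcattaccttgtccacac
F10: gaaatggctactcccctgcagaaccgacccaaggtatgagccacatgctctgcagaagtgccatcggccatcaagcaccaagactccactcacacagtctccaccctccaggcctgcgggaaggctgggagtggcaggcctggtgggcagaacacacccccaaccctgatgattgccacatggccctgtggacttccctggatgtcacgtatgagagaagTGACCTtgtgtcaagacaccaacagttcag
The capitals in Serpinb2 mark TGAATCA, a match to the AP-1 motif TGANTCA at 94 to 88 bases before the start, and TTGCTAAA and TTTCTTAA, which match the C/EBP motif TTNNGNAA on the opposite strand. In F10 they mark TGACCT, which is AGGTCA on the opposite strand, a single copy of the core element shared by many nuclear receptors, retinoic acid receptors among them, at 30 to 25 bases before the start. Both strands were searched for 7 motifs in 32851 windows of this length, of which 6.75% held the AP-1 motif, 36.8% the C/EBP motif and 14.0% the AGGTCA element. Each window printed here held no match to the NF-κB motif (GGG, any 2 bases, TTTCC), the PU.1 motif AGGAAGT or the GATA motifs TGATAA and AGATAA, which were found in 1.41%, 7.69%, 7.94% and 9.99% of windows. The first Serpinb2 start is shown; the overlapping window of a later start held 4 matches, 1 of them to the GATA motif AGATAA, at 41 to 36 bases before that start. Sequences were at hand for 5 of the 10 members. The windows of F5 and Timd4, which were not called, also held 1 AGGTCA element each, at 57 to 52 and 116 to 111 bases before the start. That of Rarb held 1 C/EBP match.

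F5 encodes coagulation factor V, the cofactor of activated factor X. It lies on chromosome 1, 164151838 to 164220277, plus strand (ENSMUSG00000026579), and its mean level was below the limit for testing. Control replicates held 1.13 and 0.900 FPKM of F5, Model replicates 0.420 and 0.643 FPKM, and MUS replicates 1.07 and 0.895 FPKM. Both Model libraries were thus below all Control and MUS libraries, while Control and MUS overlapped. The fragments behind these levels numbered 192 and 153 (Control), 44 and 74 (Model), and 120 and 108 (MUS). The difference of mean log2(FPKM + 1) was -0.40 in Model vs. Control and 0.37 in MUS vs. Model. When all genes with any fragment were tested, F5 had a limma adjusted p of 0.488 and 0.671 in these comparisons. With fragment-total scaling, both MUS libraries of F5 were also below both Control libraries, and the differences from Control were -0.68 in Model and -0.32 in MUS, against -0.02 in MUS with the deposited FPKM.

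Of 20 other genes of coagulation and plasminogen activation, 12 were tested. Against 9.5% of all genes called higher and 5.56% called lower in Model vs. Control, limma called 4 of these 12 higher and 0 lower. Among them were Plaur, which encodes the urokinase receptor (log2 fold change 2.51, limma adjusted p = 0.00575), and F3 and Procr, which were named after their values were seen. F3, the tissue factor that starts the cascade leading to factor X, had 2.15 and 3.77 FPKM in Control, 31.1 and 27.3 FPKM in Model, and 64.3 and 43.7 FPKM in MUS. Both MUS libraries of F3 were above both Model libraries, a difference that limma did not call (log2 fold change 0.84, adjusted p = 0.528). F7, which encodes the partner protease of tissue factor, was the most abundant of this list together with Plaur and was not called in Model vs. Control (log2 fold change 0.55, limma adjusted p = 0.245). The median of the 12 genes was -0.08 in Model vs. Control and -0.02 in MUS vs. Model.

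Gata6 encodes the transcription factor of the resident programme. It lies on chromosome 18, 11052508 to 11085635, plus strand (ENSMUSG00000005836). Control replicates held 1.53 and 1.15 FPKM of Gata6, Model replicates 0.963 and 1.19 FPKM, and MUS replicates 0.829 and 0.562 FPKM. The Control and Model libraries overlapped, and both MUS libraries were below all others. With fragment-total scaling, both Model libraries of Gata6 (0.875 and 1.19) were also below both Control libraries (2.22 and 1.53). No comparison of Gata6 was called by limma, with log2 fold changes of -0.17 in Model vs. Control (adjusted p = 0.646), -0.29 in MUS vs. Model (adjusted p = 0.793) and -0.46 in MUS vs. Control (adjusted p = 0.189). The levels rested on 51 to 195 fragments per library, and the 95% interval in MUS vs. Model was -0.85 to 0.26. The difference between Model and Control was -0.50 with fragment-total scaling and -0.85 with voom, and limma called neither (adjusted p = 0.184 and 0.120). With voom on the recovered fragments, which uses fragment totals and no added FPKM, Gata6 was called lower in MUS vs. Control (log2 fold change -1.48, limma adjusted p = 0.0253). In that fit 2386 of the 9794 genes were called lower, and the median log2 fold change of all genes was -0.48.

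Rarb encodes retinoic acid receptor beta, a receptor for the signal that induces GATA6. It lies on chromosome 14, 16430839 to 16819156, minus strand (ENSMUSG00000017491). Control replicates held 0.0831 and 0.0830 FPKM of Rarb, Model replicates 0.0538 and 0.0245 FPKM, and MUS replicates 0.0251 and 0 FPKM. These values correspond to 10, 10, 4, 2, 2 and 0 fragments, and the 0 in MUS replicate 2 allows up to 0.0351 FPKM. Model replicate 2 and both MUS libraries were at or below what 3 fragments would give, so differences between Model and MUS were not detectable at this depth. In addition, 38.4% of the exon bases of Rarb are shared with genes on the opposite strand, Top2b among them, and the counting is not stated to use strand.

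Of 18 other genes of retinoic acid handling and reception, 9 were tested. In Model vs. Control 1 was called higher and 2 lower by limma, against 9.5% and 5.56% of all genes. Aldh1a2, which makes retinoic acid from retinal, held 2.47 and 1.68 FPKM in Control, 5.85 and 5.39 FPKM in Model, and 5.67 and 6.01 FPKM in MUS (log2 fold change 1.12 in Model vs. Control, limma adjusted p = 0.0164). This was close to the fold threshold of 1, with the deposited FPKM. Fragment-total scaling moved the median log2 fold change of all genes from 0.04 to -0.40, and Aldh1a2 was not examined there. Dhrs3, which reduces retinal and is itself induced by retinoic acid, fell from 78.9 and 16.4 FPKM in Control to 5.16 and 6.86 FPKM in Model (log2 fold change -2.42, limma adjusted p = 0.0471). Rxra, the partner receptor of the retinoic acid receptors, fell from 18.1 and 11.1 FPKM to 2.57 and 3.78 FPKM (log2 fold change -1.88, limma adjusted p = 0.00857) and was named after its values were seen. Rdh11, a retinal reductase and the most abundant gene of this list after Dhrs3, had a log2 fold change of 0.91 (limma adjusted p = 0.0475), which was below the fold threshold. The median of the 9 genes was -0.46 in Model vs. Control and -0.04 in MUS vs. Model, where 0 were called.

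Timd4, Icam2 and Adgre1 encode surface proteins. Timd4 is a receptor for phosphatidylserine on apoptotic cells and a marker of long-lived resident macrophages (chromosome 11, 46810800 to 46844332, plus strand, ENSMUSG00000055546). Control replicates held 1.17 and 5.25 FPKM of Timd4, Model replicates 5.02 and 4.04 FPKM, and MUS replicates 5.998 and 4.11 FPKM. Control replicate 1 was the lowest library and Control replicate 2 lay among the stimulated ones, so all groups overlapped. Model differed from Control by 0.58 on the log2 scale (SE 0.47, adjusted p from limma = 0.415), and the sign rested on Control replicate 1. Without Control replicate 1 it was -0.18, and without Control replicate 2 it was 1.35 and passed the test (limma adjusted p = 0.0285). Timd4 in MUS vs. Control likewise passed only without Control replicate 2 (log2 fold change 1.46, limma adjusted p = 0.0196), against 0.70 with all libraries (adjusted p = 0.307). Within batch 1 and batch 2, the log2 difference of Timd4 in Model vs. Control was 1.47 and -0.31. Between MUS and Model the log2 fold change of Timd4 was 0.12 (adjusted p from limma = 0.970).

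Adgre1 encodes F4/80, the classical macrophage antigen, which resident peritoneal macrophages carry at a high level (chromosome 17, 57358691 to 57483527, plus strand, ENSMUSG00000004730). Control replicates held 134 and 284 FPKM of Adgre1, Model replicates 241 and 300.0 FPKM, and MUS replicates 341 and 297 FPKM. Both MUS libraries were above both Control libraries, whereas Control and Model overlapped. By limma, Adgre1 in Model differed from Control by 0.46 on the log2 scale (adjusted p = 0.484), and MUS from Model by 0.24 (adjusted p = 0.926). The first of these turned to -0.08 with fragment-total scaling and to -0.51 with quantile normalization, so no direction is given. In MUS vs. Control the log2 fold change of 0.70 was not called (limma adjusted p = 0.270), but without Control replicate 2 it was 1.24 and was called (limma adjusted p = 0.0431).

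Icam2 encodes a ligand of leukocyte integrins that is used to sort large peritoneal macrophages (chromosome 11, 106377656 to 106388075, minus strand, ENSMUSG00000001029). Control replicates held 2.41 and 2.16 FPKM of Icam2, Model replicates 4.80 and 3.05 FPKM, and MUS replicates 1.84 and 2.59 FPKM. Both Model libraries were above all other libraries, and Control and MUS overlapped. By limma, Icam2 gave 0.56 for Model against Control on the log2 scale (SE 0.25, adjusted p = 0.169) and -0.60 for MUS against Model (SE 0.25, adjusted p = 0.590). The 95% interval in MUS vs. Model ran from -1.20 to -0.00427, and Icam2 was the only member tested whose interval did not include 0 there. Of all genes, 8.42% had such an interval in MUS vs. Model, and 5.81% were lower. The unadjusted limma p of Icam2 there was 0.0488. It was 0.0483 with a pseudocount of 0.1 and 0.0496 with median-ratio scaling. With the replicate number as a block, fragment-total scaling, quantile normalization and voom it was 0.0587, 0.0586, 0.0627 and 0.0906. Without Model replicate 1 the log2 fold change was -0.34, and without Model replicate 2 it was -0.86. The levels came from 53 to 129 fragments per library. With fragment-total scaling, Model differed from Control by 0.16. Since Icam2 is also expressed by endothelial cells, the endothelial list was examined. Its 6 genes summed to 5.03 and 3.97 FPKM in Control, 2.41 and 3.28 FPKM in Model, and 3.16 and 3.74 FPKM in MUS. Vwf, the only one tested, was lower in both Model libraries than in Control, whereas Kdr held 0.475 and 0.402 FPKM in Control and 0.596 and 0.908 FPKM in Model. Pecam1 and Cdh5 were also higher in both Model libraries, and Tie1 and Tek overlapped. Pecam1 was very low throughout, with 0.0140 FPKM in each Control library and 0.102 and 0.0518 FPKM in Model. The part of endothelial cells in the level of Icam2 was not tested.

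**Figure D2:**
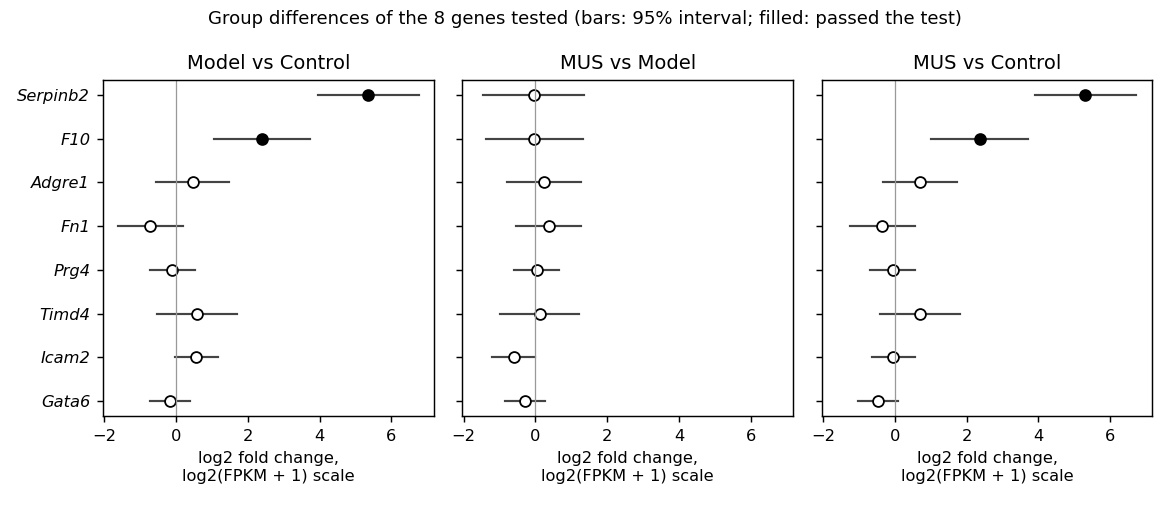
Log2 fold change on the log2(FPKM + 1) scale of the 8 identity genes tested, in Model vs. Control, MUS vs. Model and MUS vs. Control, with bars for the 95% interval from limma and filled points for genes that passed the test. Serpinb2 (5.35) and F10 (2.39) lie far to the right in both comparisons with Control, and all intervals in MUS vs. Model include 0 except that of Icam2, which runs from -1.20 to -0.00427.

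Fn1 and Prg4 encode proteins of the extracellular matrix. Fn1 encodes fibronectin (chromosome 1, 71585520 to 71653200, minus strand, ENSMUSG00000026193). Control replicates held 139 and 239.9 FPKM of Fn1, Model replicates 93.0 and 132 FPKM, and MUS replicates 142 and 145 FPKM. Both Model libraries were below all Control and MUS libraries, as for F5. By limma, Fn1 gave -0.71 for Model against Control on the log2 scale (SE 0.38, adjusted p = 0.234) and 0.37 for MUS against Model (adjusted p = 0.856). Under some other scalings Fn1 was called lower in Model vs. Control, with -1.26 under fragment-total scaling (limma adjusted p = 0.0424), -1.27 with voom (0.0312) and -1.60 with quantile normalization (0.0364). Of the 9794 genes, 1554, 2050 and 715 were called lower there, and the median log2 fold change of all genes was -0.40, -0.50 and -0.06. Median-ratio scaling did not call Fn1 (-0.78, limma adjusted p = 0.192). Fn1 was lower in Model than in Control under all of these scalings.

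Prg4 encodes lubricin, a lubricating glycoprotein (chromosome 1, 150449412 to 150466165, minus strand, ENSMUSG00000006014). Control replicates held 5.32 and 5.17 FPKM of Prg4, Model replicates 3.68 and 6.29 FPKM, and MUS replicates 5.53 and 4.50 FPKM. The Control and MUS values lay between the Model values, but with fragment-total scaling all 4 stimulated libraries were below both Control libraries. Prg4 in Model differed from Control by -0.10 on the log2 scale (95% interval -0.72 to 0.53, adjusted p from limma = 0.818), and MUS from Model by 0.04 (adjusted p = 0.986). The first difference was -0.56 with fragment-total scaling and -0.67 with voom, neither of which limma called (adjusted p = 0.172 and 0.160). Of the exon bases of Prg4, 4.77% are shared with Tpr on the opposite strand.

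In all, 4 of the 8 members tested had Control and Model libraries that did not overlap, namely Serpinb2, F10 and Icam2, which were higher in Model, and Fn1, which was lower, against 61.1% of all genes (32.6% higher and 28.5% lower). In MUS vs. Model this held for 3 of 8 members, with Fn1 higher and Gata6 and Icam2 lower in MUS, against 42.1% of all genes (21.2% higher and 21% lower). For MUS vs. Control it held for 4 of 8 members, with Serpinb2, F10 and Adgre1 higher and Gata6 lower in MUS, against 73.3% of all genes (39.6% higher and 33.8% lower). These counts depended on the scaling of the Control libraries. With fragment-total scaling, the Model libraries of 5 of the 8 members did not overlap Control, with Serpinb2 and F10 higher (15.6% of all genes) and Gata6, Prg4 and Fn1 lower (53% of all genes), while Icam2 overlapped. For MUS against Control there were then 6 of 8, with Serpinb2 and F10 higher (21% of all genes) and Gata6, Icam2, Prg4 and Fn1 lower (57.2% of all genes), while Adgre1 overlapped. Between MUS and Model the 3 members and their directions stayed as before, against 20.6% of all genes higher and 21% lower. Several members also differed between the Control libraries. Control replicate 2 held 4.50 times the Timd4 level of Control replicate 1, 4.38 times its Serpinb2 level, 3.48 times its F10 level and 2.11 times its Adgre1 level, but 0.753 times its Gata6 level. The Control libraries also differed in Cd14, the LPS co-receptor, with 125 FPKM in replicate 1 and 406 FPKM in replicate 2. The part of this difference in the results was not tested beyond leaving out each library.

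**Figure D3:**
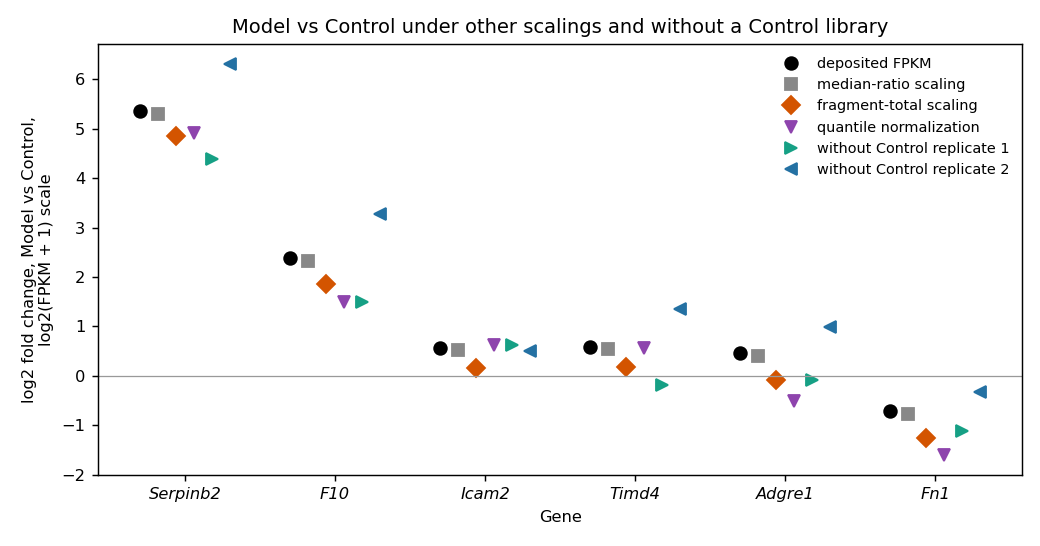
Log2 fold change in Model vs. Control of 6 identity genes with the deposited FPKM, after 3 other scalings, and without Control replicate 1 or 2. Serpinb2 and F10 stay above 0 and Fn1 below 0 at each point. Adgre1 falls to -0.08 with fragment-total scaling and to -0.51 with quantile normalization, and Timd4 to -0.18 without Control replicate 1.

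Of 20 other genes associated with resident large peritoneal macrophages, 13 were tested. In Model vs. Control 1 was called higher and 0 lower by limma, against 9.5% and 5.56% of all genes. At an unadjusted p under 0.05, 1 of the 13 was higher and 5 were lower (Vsig4, Bhlhe40, Laptm5, Gas6 and Itga6, named after their values were seen), against 18.7% and 14.9% of all genes. Bhlhe40, Gas6 and Itga6 were past the fold threshold, with log2 fold changes of -1.33, -1.57 and -1.34 (limma adjusted p = 0.0513, 0.0634 and 0.0715). These counts use the deposited FPKM. With fragment-total scaling 1554 of all genes were called lower, against 545 here, and this list was not counted there. The called gene was Thbs1, which encodes the matrix glycoprotein thrombospondin-1. Thbs1 held 89.96 and 48.8 FPKM in Control, 334 and 399 FPKM in Model, and 589 and 573 FPKM in MUS (log2 fold change 2.44 in Model vs. Control, limma adjusted p = 0.00907). Both MUS libraries of Thbs1 exceeded both Model libraries, but limma did not call the difference (log2 fold change 0.67, adjusted p = 0.721). Cd9, a tetraspanin and the other abundant gene of this list, had a log2 fold change of 0.35 in Model vs. Control (limma adjusted p = 0.541). In MUS vs. Control, Gas6, a ligand of receptors for apoptotic cell uptake, was called lower (log2 fold change -1.62, limma adjusted p = 0.0464) and was named after its values were seen. Over the 13 genes, the median was -0.22 in Model vs. Control and 0.05 in MUS vs. Model. Of the genes under the limit for testing, Naip1 (named after its values were seen) held 2.49 and 1.41 FPKM in Control and 0.218 and 0.187 FPKM in Model. Wt1 was also lower in both Model libraries, Alox15 overlapped, and Selp, Garnl3 and Lrg1 were higher. Garnl3 lay between 0.0425 and 0.172 FPKM in the Control and Model libraries. Apoc1 held 0.294 and 0.0587 FPKM in Control and 0 in Model. A value of 0 allows up to 3 fragments, so no direction is given for Apoc1.

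Genes associated with recruited and small peritoneal macrophages were also detected, at very unequal levels. Of 15 such genes, 10 were tested and 0 were called by limma in any of the 3 comparisons, with 1 lower (Ccr2, named after its values were seen) and 0 higher at an unadjusted p under 0.05 in Model vs. Control, against the same 14.9% and 18.7% of all genes. The most abundant were the MHC class II genes Cd74, with 582 to 1063 FPKM over the 6 libraries, and H2-Aa, with 188 to 257 FPKM. Retnla and Mrc1 had means of 60.3 and 19.9 FPKM, and Ccr2, Cx3cr1 and Cd226 of 1.05, 0.809 and 0.148 FPKM (named after their values were seen). The summed level of this list was 1177 to 1785 FPKM, and that of the other resident genes was 1019 to 1556 FPKM. Both sums rest largely on a few abundant genes, such as Cd74 (mean 808 FPKM) here and Cd9 (389 FPKM) and Thbs1 (339 FPKM) there. They therefore do not measure the shares of resident and recruited cells. The median log2 fold change of the 10 tested genes was 0.05 in Model vs. Control and 0.11 in MUS vs. Model. Genes under the limit for testing are not in these counts. Among them, Cx3cr1 held 3.06 and 1.66 FPKM in Control, 0.0629 and 0.0143 FPKM in Model, and 0.0441 and 0.0137 FPKM in MUS. Ciita and Cd209a were also lower in both Model libraries than in both Control libraries, Clec10a overlapped, and Cd226 was higher.

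**Figure D4:**
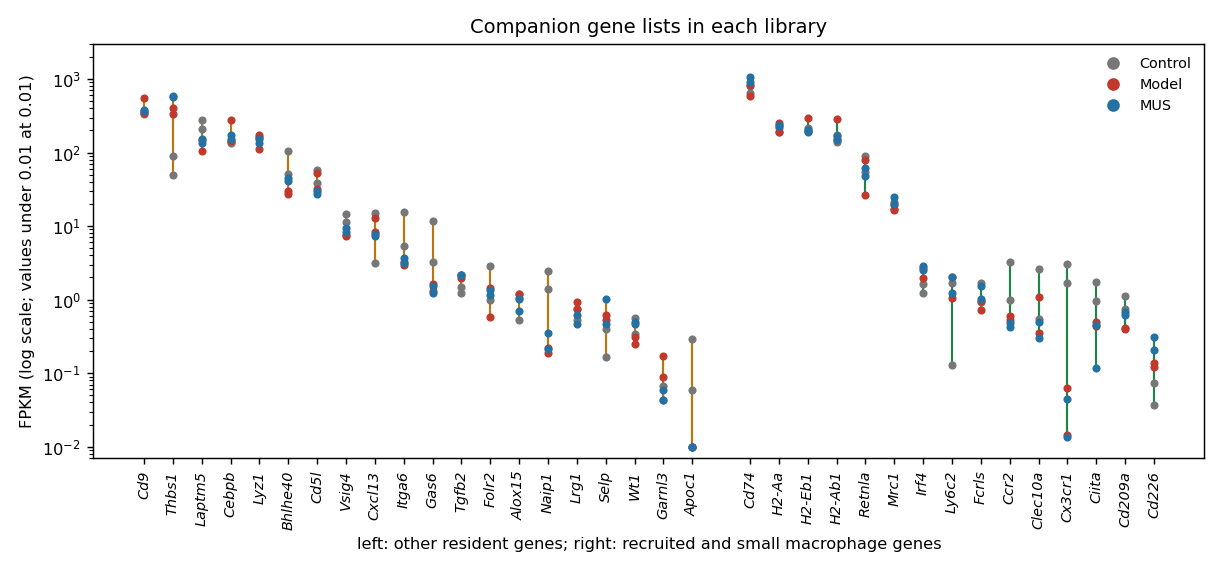
FPKM (log scale) in each library of 20 other genes of resident macrophages and 15 genes of recruited and small peritoneal macrophages, ordered by mean within each list; points are libraries coloured by group and lines span their range, with values of 0 drawn near the lower edge. Thbs1 is the only tested gene of both lists called in Model vs. Control with the deposited FPKM, and the Cd74 points span 582 to 1063 FPKM.

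All 8 genes of the list that defines macrophages were tested. In Model vs. Control, Cd14 and Fcgr1, an Fc receptor, were called higher and Csf1r, the receptor for the macrophage growth factor, was called lower, with log2 fold changes of 2.64, 3.57 and -1.37 (limma adjusted p = 0.0258, 0.00326 and 0.0289). Markers of other cells were low next to the 8 macrophage genes, which summed to 9432 to 14238 FPKM. They were not all low next to the identity genes. Col1a1, Col1a2 and Dcn had means of 7.78, 6.99 and 5.60 FPKM, above those of Prg4 (5.08 FPKM) and Gata6 (1.04 FPKM). Summed levels over the 6 libraries ranged from 19.7 to 35.8 FPKM for 10 mesothelial and stromal genes, 3.93 to 6.17 FPKM for 6 B cell genes, 0.253 to 3.42 FPKM for 6 T and innate lymphocyte genes, 1.69 to 4.50 FPKM for 8 eosinophil and mast cell genes, 0.798 to 7.78 FPKM for 6 dendritic cell genes and 2.41 to 5.03 FPKM for 6 endothelial genes. The 8 neutrophil genes summed to 61.6 to 167 FPKM, of which S100a8 and Csf3r made up most, while Ly6g, Retnlg and S100a9 were listed at 0 in all libraries. Markers called higher in Model vs. Control were Dcn, Lck, S100a8 and Ccr7, with log2 fold changes of 1.18, 1.47, 1.90 and 1.97 (limma adjusted p = 0.0161, 0.0183, 0.0365 and 0.00683). Control held 0.0448 and 0.134 FPKM of Lck and 0.398 and 0.884 FPKM of Ccr7. Both reached the limit for testing only through Model and MUS. Of the neutrophil list, Csf3r, Mmp8 and Mmp9 gave 1.19, -0.51 and -0.68 and were not called, nor were Col1a1, Col1a2, Col3a1 and Pdgfra. The other T and innate lymphocyte genes and dendritic cell genes were below the limit for testing. Among them, Trac and Clec9a overlapped between Control and Model, and Xcr1 was higher in Model. Of the mesothelial and stromal genes, whose cells also make Fn1, the mesothelial Msln, Upk3b, Lrrn4 and Krt19 were each below 1 FPKM in every library and Krt8 reached 1.01 FPKM in Control replicate 1. The stromal Col1a1 held 4.56 to 14.0 FPKM and Col1a2 5.498 to 10.1 FPKM. The part of such cells in the levels of the identity genes was not tested.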

How the data were processed

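Peritoneal macrophages of 3 groups (Control, Model and MUS) with 2 libraries each were analysed. The authors deposited 1 table of FPKM with a column per library; the paper's methods name RSEM, whereas the submitters' processing notes name HISAT2, featureCounts 1.5.0-p3 and GRCm39. Gene positions match GRCm38, since 98.3% of the 54409 identifiers found in GENCODE M21 carried identical coordinates. There were 0 columns without a sample. In each library, FPKM times gene length was a whole multiple of 1 step for 100% of the low values checked, within 0.1 of a step, so fragments were recovered. A value of 0 allows up to 3 fragments, or 0.131 to 0.213 FPKM for a 1-kb gene, for counting error only.

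In R 4.3.3, limma 3.58.1 (lmFit, contrasts.fit, eBayes with trend) was fitted to log2(FPKM + 1) in 1 model of all 6 libraries, for the 9794 genes whose mean reached 1 FPKM. Tests were two-sided with Benjamini-Hochberg adjustment over all genes tested, and the fold changes understate the change of low genes. A gene was called at the study's thresholds, an adjusted p no more than 0.05 and a log2 fold change beyond 1 in either direction. The study's DESeq2 takes counts and was not run. Python 3.11.15 was used for tables and figures. The fit was tested on simulated data.

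Replicate numbers are the batch numbers of the labels, which is the source of the pairing. Across genes, the deviations of same-numbered libraries correlated with 0.119 (Control and Model), 0.136 (Model and MUS) and -0.0928 (Control and MUS). Alternatives changed the pseudocount, filter, scaling, batch term, trend, libraries fitted or single libraries. Members and gene lists were chosen with earlier results of these data known. Calls in the companion lists were counted with the deposited FPKM only. Of companion lists, the 2 most abundant genes and the largest called increase and decrease in Model vs. Control were named, with others said to be named after their values were seen; 1 gene that this rule names is not reported here. For each tested member the 3 genes of most similar pattern were named. Promoter windows were taken from RefSeq (GRCm38.p6).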

Additional observations from a re-analysis of the deposited data

How the results depend on the processing

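Serpinb2 passed in Model vs. Control and MUS vs. Control under every alternative run, and 0 members were called in MUS vs. Model under any of them. The members called in Model vs. Control numbered 2, and 1 without the filter on low values or with only the 2 groups fitted; leaving out single libraries gave 1 to 3. Fragment-total scaling and voom each gave 3, Fn1 being added as lower, and the 2 with quantile normalization were Serpinb2 and Fn1. In MUS vs. Control, 2 were called, 1 without the filter or with quantile normalization, 3 with voom, Gata6 being added as lower, and 1 to 4 with single libraries left out. With the replicate number as a block, 2, 0 and 2 members were called in Model vs. Control, MUS vs. Model and MUS vs. Control, and no member's call changed; the block gave 4 called genes in MUS vs. Model over all genes, against 0 without it.

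Over all genes, 1475 were called in Model vs. Control (930 higher, 545 lower), 260 without the filter, 797 with 2 groups, 2734 with voom (684 higher, 2050 lower), 2200 with fragment-total scaling, an alternative added once the data had been seen (646 higher, 1554 lower), and 692 to 2077 without single libraries. For MUS vs. Control, 1980 were called (1107 higher, 873 lower), 456 without the filter, 3144 with voom (758 higher, 2386 lower), 2691 with fragment-total scaling (738 higher, 1953 lower) and 184 to 2398 without single libraries. For MUS vs. Model, 1 was called with a pseudocount of 0.1, 7 with 2 groups and 0 to 31 without single libraries.

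Signs turned for members that were not called, and the cause was not tested. Adgre1 in Model vs. Control was -0.51 with quantile normalization and -0.084 with fragment-total scaling and -0.083 with voom; in MUS vs. Control with quantile normalization, Adgre1 was -0.13 and Icam2 0.050. The same normalization gave 0.044 for F10 in MUS vs. Model. Without single libraries, log2 fold changes in Model vs. Control ran from -0.076 to 1.00 for Adgre1, -0.18 to 1.35 for Timd4 and -0.42 to 0.22 for Prg4. In MUS vs. Model they ran from -0.15 to 0.058 for Serpinb2, -0.16 to 0.10 for F10, -0.28 to 0.36 for Prg4 and -0.11 to 0.35 for Timd4. In MUS vs. Control they ran from -0.064 to 1.46 for Timd4, -0.21 to 0.13 for Icam2, -0.74 to 0.044 for Fn1 and -0.18 to 0.065 for Prg4. With 2 libraries per group, depth limits Rarb, Gata6, F5 and Icam2 most.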

Other observations

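The genes whose pattern over the 6 libraries was most like that of each member tested were sought among all 9794 genes, by Pearson's r of log2(FPKM + 1), as a description. The points share 3 groups, so that many genes have a high value, and 836 genes had r over 0.95 with Serpinb2 and 567 with F10. Closest to Serpinb2 were Enpp4 (r = 0.9997), Ggct and Trim30d. Closest to F10 were Ttc39c (r = 0.998), Tnip1 and Cxcl2. For Adgre1, 92 genes had r over 0.95, and the closest were Cep85l (r = 0.998), Mki67 and Rasgef1b. Mki67, which encodes a proliferation antigen, held 1.08 and 5.13 FPKM in Control, 4.43 and 5.62 FPKM in Model, and 6.87 and 5.75 FPKM in MUS. Its lowest library was thus Control replicate 1, as for Adgre1.

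The other members had fewer similar genes. For Timd4, 36 genes had r over 0.95, with Mob3b, Adhfe1 and AC154707.1 closest. Icam2 had 35, with Napsa, Wdr73 and Batf3 closest, and Batf3 held 0.685 and 0.602 FPKM in Control, 2.66 and 1.33 FPKM in Model, and 0.290 and 0.732 FPKM in MUS. Fn1 had 22, with Ccdc93, Dhx33 and Arl5a closest. Gata6 had 8, with Tubd1 (r = 0.973), Slc35a5 and Gm14328 closest. Prg4 had 0, and its closest genes were 5730455P16Rik (r = 0.949), Zfp260 and Mir186.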
